A study of Rattus norvegicus with 36 samples.

Results

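The effect of an enriched environment was examined in the striatum of rats that carry a Huntington disease transgene, by comparing 6 libraries of transgenic animals from the enriched environment (TG_EE) with 6 of transgenic animals from the standard environment (TG_SE). These 12 libraries were chosen by the genotype TG and the environments EE and SE in their labels, out of 36 libraries in all. The remaining 24 came from wildtype (WT) animals in EE and SE and from animals of both genotypes after maternal separation (MS), which the labels call ELS. All animals were male Sprague Dawley rats aged 2 months, and each library was made from poly(A) RNA of the striatum of 1 animal. TG animals were BACHD rats, which carry a bacterial artificial chromosome with the whole human *HTT* locus, its own regulatory elements and an expanded glutamine-coding repeat in exon 1, and their WT littermates served as the other genotype. Animals in EE lived from weaning in larger cages and larger groups, with nesting material and with toys and objects that were rearranged repeatedly, whereas SE animals lived in standard cages with bedding and nesting material. Whole litters were assigned to 1 environment and rats were housed with littermates, so litter, cage and environment cannot be told apart here, and p-values measure the spread between animals.

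Huntington disease is caused by an expanded CAG repeat in the huntingtin gene. The striatum is affected early, and its medium spiny neurons, which receive cortical and thalamic input and project through the direct and indirect pathways of the basal ganglia, are the cells most affected. Enrichment of the housing is a classic way to increase sensory, motor and social stimulation in rodents, and it has long been used in models of this disease. Bulk striatal RNA mixes neurons and glia, and in it fewer cells of a type and less RNA per cell cannot be told apart.

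Total counts on genes ranged from 11915538 to 13447857 in TG_EE and from 10785669 to 13423957 in TG_SE. Of 23965 genes in the table, the 12657 with a mean of at least 50 raw counts over all libraries were tested. Genes are given by Ensembl identifier, because the sources used here do not pair identifiers with symbols. For the same reason the huntingtin gene, cell type markers and pathways were not analysed here, and neither the transgene nor the tissue label could be checked against a marker. Between all 18 TG and all 18 WT libraries, 2 genes (0.0158% of those tested) were higher in every TG library and 3 genes (0.0237%) were lower in every one, without overlap. The study left out *Msantd1*, whose sequence is also present in the flank of the transgene construct. No gene was left out here for that reason, and whether the higher genes come from the construct was not tested. Library numbers go from 1 to 36, and in every run of 6 numbers in sequence each group has 1 animal. The labels do not say what a run stands for. Runs were fitted as blocks by a rule set for this comparison. In this fit 3814 genes (30.1%) differed between runs with an adjusted p no higher than 0.1.

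Of the 12 libraries, TG_EE replicate 6 stood apart in single genes. It had 43 genes at over 3 times their median in the remaining 35 libraries, against 2 to 12 genes in the other TG_EE libraries and 1 to 9 in TG_SE. The number was also high in 4 WT libraries, with 39 genes in WT_SE replicate 2, 47 in replicate 5 and 83 in replicate 6, and 41 in WT_EE replicate 6. TG_SE replicate 6, with 3 such genes, did not stand apart in this way. The difference between TG_EE and TG_SE within run 6, which joins this library with TG_SE replicate 6, also ran against that of the other runs for many genes, as described further on. Housing has no marker gene by which the EE and SE labels of these libraries could be checked, so the labels were taken as given and whether they hold was not tested. Every count of called genes below rests on them. Genes called in TG_EE/TG_SE and in the interaction are also given without TG_EE replicate 6 or TG_SE replicate 6. Precision, principal components and the comparison of single genes with WT animals are given with all animals only.

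With all 12 animals, no gene passed the test between TG_EE and TG_SE. Genes were called when the adjusted p was no higher than 0.1 and the log2 fold change reached 0.3 in either direction. By this rule edgeR's quasi-likelihood test called 0 genes (0%), and the smallest adjusted p was 0.237. An unadjusted p under 0.05 was reached by 1543 genes (12.2%), where 5% of the genes tested is 633. TG_EE had the higher level for 864 of them (6.83%) and the lower level for 679 (5.36%). DESeq2, run on the same counts, called 4 genes with the run as block and 10 without it. The fitted differences were small. The median absolute log2 fold change was 0.07, the 95th percentile 0.26 and the 99th percentile 0.43, and the median over all genes with sign was -0.0059. In 423 genes the log2 fold change reached 0.3 in either direction, and 279 of these had an unadjusted p under 0.05, 172 of them higher and 107 lower in TG_EE.

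The precision of the comparison can be read from the 95% confidence intervals of the fitted differences. These intervals, like the p-values, rest on the spread between animals, and litter and cage cannot be told apart from environment in them. The median standard error of a log2 fold change was 0.08. For 8186 genes (64.7%) the whole interval lay within 0.3 of no change on the log2 scale, for 11620 genes (91.8%) within 0.5 and for 12559 genes (99.2%) within 1. Precision followed the level of expression. In the quartile of lowest mean counts (50 to 153) the median standard error was 0.13 and 26.6% of the intervals lay within 0.3. In the highest quartile (777 to 664688) these values were 0.06 and 85.7%. Along the same order, more genes reached an unadjusted p under 0.05, with 259 in the lowest quartile, 312 and 431 in the middle ones and 541 in the highest. Genes higher in TG_EE made up 52.5% to 57.9% of them in each quartile. In WT animals the order was the opposite, with 223 such genes in the lowest quartile for EE against SE and 99 in the highest.

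**Figure D1:**
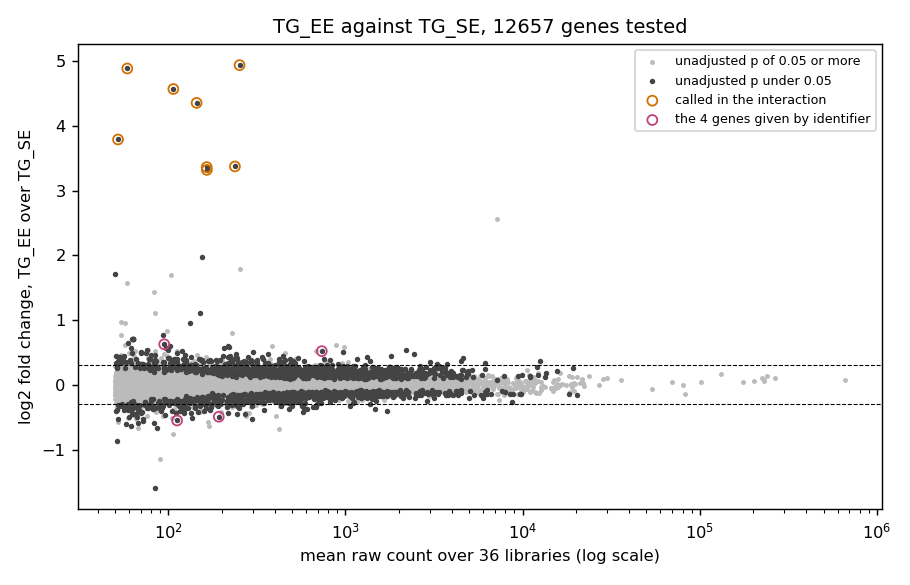
Log2 fold change of TG_EE over TG_SE (vertical axis) against the mean raw count over 36 libraries (horizontal axis, log scale) for 12657 genes, with dashed lines at 0.3 in either direction. Most genes lie between these lines, and the 8 genes at the top left, at log2 fold changes of 3.32 to 4.94, are those called in the interaction with genotype.

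The genes with the smallest p in each direction are described by animal. They were picked by the fit over all runs, so their separation by group and their direction within runs follow in part from that choice. ENSRNOG00000009329 was expressed at 60.8 to 84.2 TMM-scaled CPM, which are counts relative to library size, in TG_EE, with a median of 70.6, and at 38.5 to 60.6 CPM in TG_SE, with a median of 48.4. The groups did not overlap, although the lowest TG_EE animal (60.8 CPM) and the highest TG_SE animal (60.6 CPM) were nearly level. The means were 72.5 ± 8.60 CPM (SD, n = 6) and 50.5 ± 8.49 CPM. The log2 fold change was 0.52 (standard error 0.11, 95% interval 0.30 to 0.74), with an unadjusted p of 3.74e-05 and an adjusted p of 0.237. All 6 runs had the higher value in TG_EE, by 0.47 to 0.89 on the log2 scale in runs 1 to 5 and by 0.02 in run 6.

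ENSRNOG00000034107, a gene of lower expression, was measured at 7.87 to 10.8 CPM in TG_EE (median 8.45) and at 4.20 to 7.26 CPM in TG_SE (median 5.68). Here, too, no TG_SE animal reached the lowest TG_EE animal. The log2 fold change was 0.63 (95% interval 0.34 to 0.91, standard error 0.14, adjusted p = 0.294), a 1.54-fold difference. The difference within runs was 0.39 to 0.91 in runs 1 to 5 and 0.16 in run 6.

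Among the genes lower in TG_EE, ENSRNOG00000018382 had the smallest p. It was measured at 5.34 to 8.24 CPM in TG_EE (median 7.24) and at 9.19 to 13.9 CPM in TG_SE (median 9.47). Again the groups did not overlap, and 1 TG_SE animal, replicate 5 with 13.9 CPM, lay above the rest of its group, of which the next had 10.9 CPM. The log2 fold change was -0.55 (standard error 0.11, 95% interval -0.78 to -0.32), with an unadjusted p of 3.05e-05 and an adjusted p of 0.237. TG_EE was lower in each run, by a log2 difference between -0.80 and -0.23, and run 6, at -0.56, lay inside this range. With 5 surrogate variables in place of the run block the log2 fold change was -0.23 (adjusted p = 0.9998).

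ENSRNOG00000040166 was measured at 11.1 to 14.25 CPM in TG_EE (median 13.8) and at 14.25 to 24.1 CPM in TG_SE (median 18.2), so that the highest TG_EE and the lowest TG_SE animal had the same rounded value. TG_EE was lower by a log2 fold change of -0.49, with a standard error of 0.13 and an adjusted p of 0.344. The difference was negative in all 6 runs, but was as small as -0.08 in run 1 and -0.17 in run 4, while it was -0.53 in run 6. With 5 surrogate variables in place of the run block the log2 fold change was -0.12 (adjusted p = 0.9998).

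**Figure D2:**
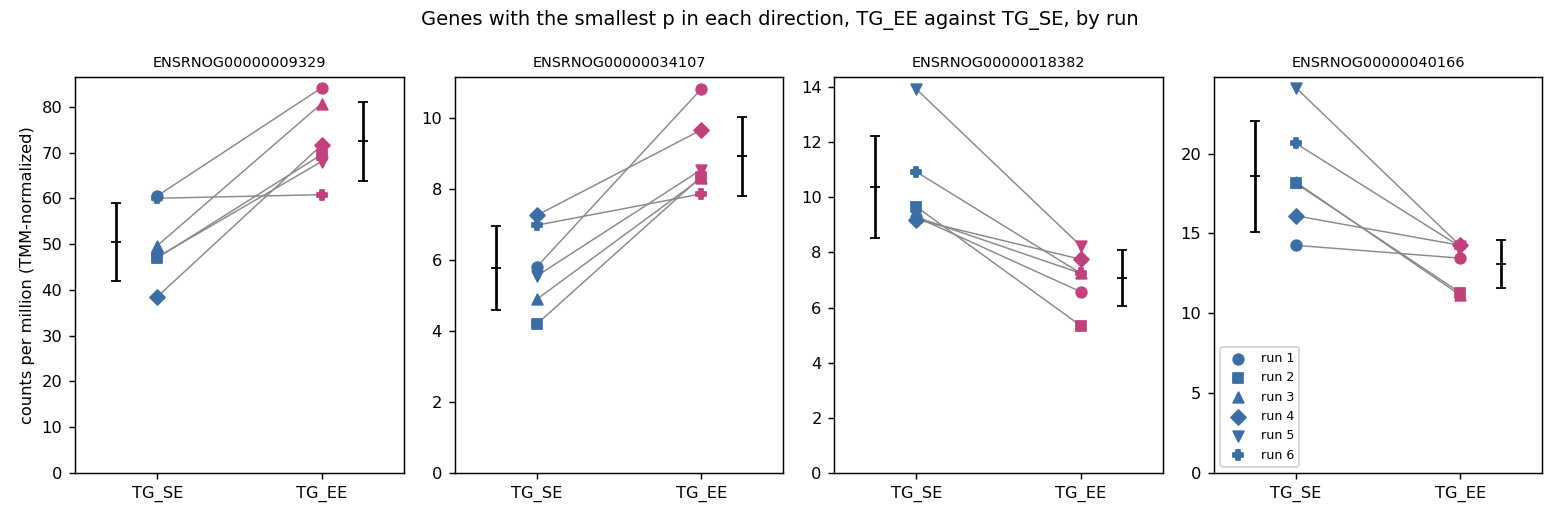
CPM of 4 genes in each TG_SE and TG_EE library (vertical axis, from 0), with lines joining the animals of 1 run, and bars giving the mean ± SD of 6 animals. All 24 lines run in the direction of the group difference, and that of ENSRNOG00000009329 in run 6 is almost level. The genes were picked by their p over these animals, so the shared direction follows in part from that choice.

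In WT animals these 4 genes differed little between the environments. ENSRNOG00000009329 had a log2 fold change of 0.11 (standard error 0.11) between WT_EE and WT_SE, ENSRNOG00000034107 of 0.02 (0.14), ENSRNOG00000018382 of -0.04 (0.11) and ENSRNOG00000040166 of -0.04 (0.13). The adjusted p in WT animals was 0.9999 for each of them. Whether the EE/SE difference itself differed between the genotypes was tested with the interaction, whose log2 values were 0.41, 0.61, -0.51 and -0.45 in the same order. The adjusted p of the interaction was 0.593, 0.549, 0.542 and 0.593, so a difference between the genotypes was not shown for any of the 4 genes. After MS, the TG animals, which are compared with the same TG_SE animals, had log2 fold changes of 0.14, 0.36, -0.07 and -0.06, with standard errors of 0.11, 0.14, 0.11 and 0.12.

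Separation of the animals was also counted without a model. All TG_EE animals lay above all TG_SE animals for 21 genes (0.166%) and below them for 17 genes (0.134%), 38 genes (0.3%) together. The corresponding number between WT_EE and WT_SE was 9 genes (0.0711%), 3 above (0.0237%) and 6 below (0.0474%). The difference between TG_EE and TG_SE had the same direction in all 6 runs for 547 genes (4.32%), 228 of them higher (1.8%) and 319 lower (2.52%) in TG_EE. In WT animals it did so for 307 genes (2.43%), 136 higher (1.07%) and 171 lower (1.35%) in WT_EE. These counts were compared as they stand, with no number expected by chance set beside them. The difference between the genotypes was not tested. In a principal component analysis of the 12 TG libraries, the first 3 components held 22.9%, 18.6% and 15.7% of the variance, and on none of 11 components did the 6 TG_EE libraries separate from the 6 TG_SE libraries.

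The number of called genes changed with run 6. Without TG_SE replicate 6, 90 genes were called, 71 higher and 19 lower in TG_EE, while each of the other 11 fits that left out 1 TG_EE or TG_SE animal called 0 genes. With all animals, an unadjusted p under 0.05 was found for 89 of the 90 in the fit with the run block, which shares 11 of the 12 TG_EE and TG_SE animals, and for 17 of the 90 with 5 surrogate variables in its place. In WT animals 62 of the 90 had the same direction, and 4 of the 90 had an unadjusted p under 0.05. Of all genes tested, 52.4% were higher and 47.6% lower in WT_EE, and 4.8% had an unadjusted p under 0.05 there. In TG animals the median absolute log2 fold change of the 90 genes was 0.40 without TG_SE replicate 6 and 0.32 with it. Without the TG_EE and the TG_SE animal of run 6, 281 genes were called (218 higher in TG_EE and 63 lower), with absolute log2 fold changes of 0.30 to 1.32 and a median of 0.39. Leaving out the same pair of any other run gave 0 called genes. These fits were chosen after the counts without single animals had been seen. The 4 genes described above were all among the 281 genes. Without TG_SE replicate 6 alone, edgeR called them too, with log2 fold changes of 0.59, 0.70, -0.56 and -0.50 in the order described. Their adjusted p was then 0.0551, 0.0622, 0.0622 and 0.0974. They had been picked by their p with all animals, so this follows in part from that choice.

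The 281 genes were obtained by leaving out run 6 because calls rose without it, so their opposite direction in run 6 follows in part from that choice, and their values there are given as a description. Within run 6, 46 of them (16.4%) differed in the direction of their call, and the median difference between TG_EE and TG_SE was -0.24 on the log2 scale in that direction. Genes higher in TG_EE in the other runs had a median difference of -0.25 in run 6, and genes lower in TG_EE one of 0.20. In the same direction, the median difference was 0.44 in run 1, 0.70 in run 2, 0.33 in run 3, 0.26 in run 4 and 0.23 in run 5, all of which had been used to call the genes. Relative to the mean of all 36 libraries, the median level of these genes was 0.09 to 0.31 in TG_EE replicates 1 to 5 and -0.09 in replicate 6. In TG_SE it was -0.45 to -0.12 in replicates 1 to 5 and 0.14 in replicate 6. Over the 6 libraries of a group, the median was 0.125 in TG_EE, 0.0605 in TG_MS and -0.138 in TG_SE. In WT animals it was 0.0732 in WT_MS, -0.0152 in WT_SE and -0.0833 in WT_EE. TG_EE was thus the highest group, and every other group lay above TG_SE. This order follows in part from the choice of genes. The 4 genes described above kept the direction of the other runs in run 6, ENSRNOG00000018382 and ENSRNOG00000040166 by log2 differences of -0.56 and -0.53 and ENSRNOG00000009329 and ENSRNOG00000034107 by 0.02 and 0.16. These 4 genes were picked by a fit that included run 6, so this agreement follows in part from that choice.

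The same genes also varied between WT animals. For the 281 genes, the median difference between WT_EE and WT_SE in the direction of the TG call was 0.26 in run 1, 0.27 in run 2, -0.15 in run 3, 0.10 in run 4, -0.30 in run 5 and -0.05 in run 6. Levels ranged from -0.30 to 0.09 over WT_SE and from -0.22 to 0.15 over WT_EE, and the groups overlapped. By the fit over all libraries, 166 of the 281 genes (59.1%) had the same direction in WT as in TG animals, and in the direction of the TG call the median WT log2 fold change was 0.01.

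**Figure D3:**
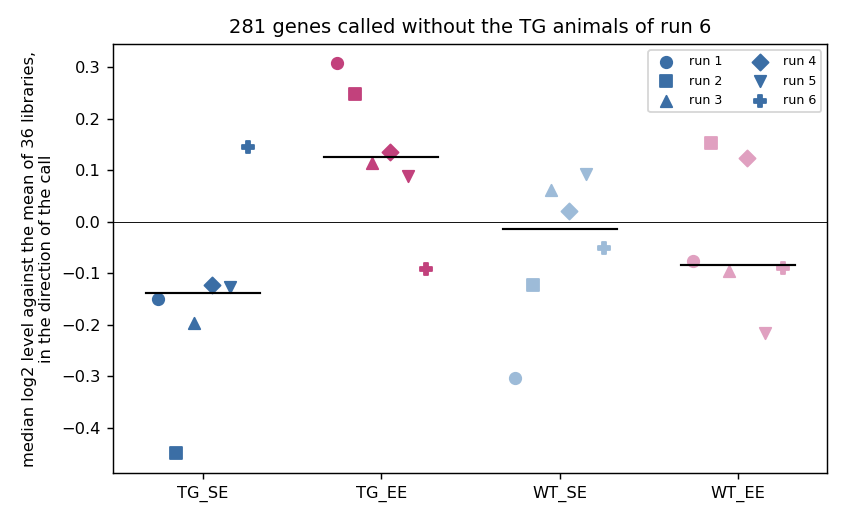
Median log2 level of 281 genes, relative to their mean over 36 libraries and turned in the direction of their TG_EE/TG_SE call (vertical axis), for each library of 4 groups, with bars at group medians and symbols by run. The genes were called without run 6, so that by choice TG_EE lies above TG_SE in runs 1 to 5, and the reverse order in run 6 (-0.09 in TG_EE and 0.14 in TG_SE) follows in part from the same choice.

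Each run was held out in the same way, with genes taken at an unadjusted p under 0.05 in the other 5 runs. In run 1, 813 of 1240 genes (65.6%) had the same direction as in the other runs. The share was 77.3% of 732 genes in run 2, 66.6% of 1210 in run 3, 63.9% of 1425 in run 4 and 62.0% of 1314 in run 5. In run 6 it was 25.0% of 2459 genes. Of all genes tested, 47.9% to 50.9% were higher in TG_EE within a run. The median difference in the held-out run, in the direction of the other runs, was 0.05 to 0.17 in runs 1 to 5 and -0.13 in run 6, against medians of 0.21 to 0.23 in the runs used for the choice. Across all genes tested, the differences of 2 runs, which share no TG_EE or TG_SE animal, had a Pearson r between -0.34 and 0.48, with a median of 0.11 over 15 pairs of runs. For the 5 pairs with run 6 r was -0.34 to 0.16, and for the 10 pairs without it r was -0.05 to 0.48. Each r was taken over genes, and genes do not stand for replicates.

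**Figure D4:**
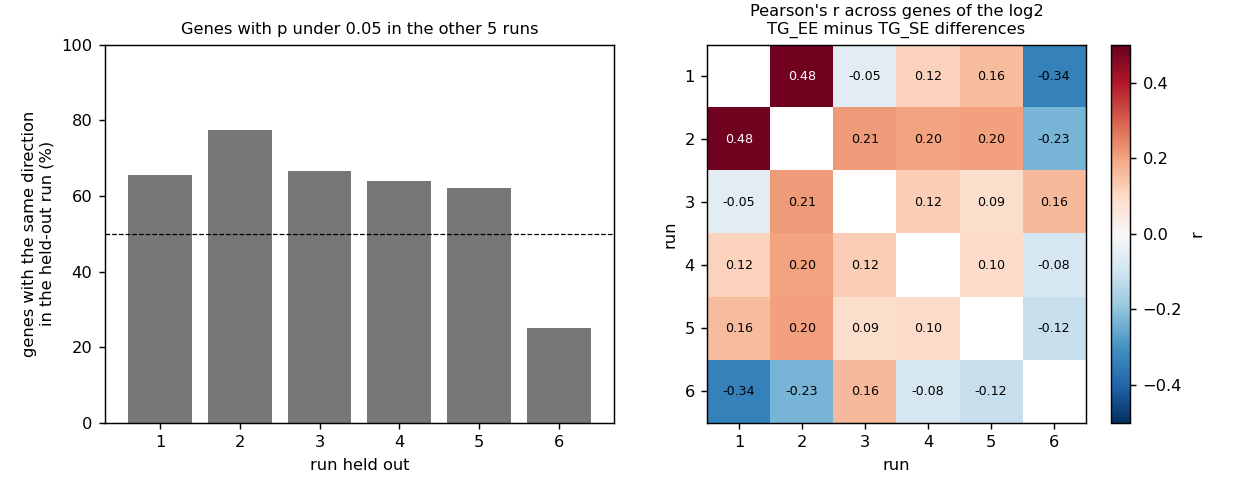
Left, the percentage of genes whose TG_EE minus TG_SE difference in the held-out run (horizontal axis) has the direction found in the other 5 runs, with a dashed line at 50%, and right, Pearson's r across genes between the log2 differences of each pair of runs. Runs 1 to 5 reach 62.0% to 77.3% and run 6 25.0%, and r is lowest (-0.34) between runs 1 and 6.

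The covariates also changed how many genes had an unadjusted p under 0.05. The count was 1116 without the run block, with 696 genes higher and 420 lower in TG_EE, and 1017 when only the 12 TG libraries were fitted. With 5 surrogate variables in place of the block in edgeR it was 386, below 5% of the genes tested, and 238 of these were lower in TG_EE. The study also used surrogate variables, but with DESeq2, and that combination was not run here. At the same thresholds the study reported genes higher in TG_EE than in TG_SE. By qPCR of a representative gene it found the same response specific to TG animals. For the protein of that gene it reported a tendency in the same direction that was not significant. The study names these genes by symbol, so they could not be looked up here. The 4 genes called by DESeq2 with the run block and the 10 called without it made up 11 different genes, 10 of them higher in TG_EE and 5 of them called in the interaction below. By edgeR with the block, 10 of these 11 genes had an unadjusted p under 0.05, and their adjusted p ranged from 0.237 to 0.492. Among the 11 were 3 of the 4 genes described above.

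The 1543 genes with an unadjusted p under 0.05 in TG animals were followed in WT animals. Of the 864 genes higher in TG_EE, 492 (56.9%) were also higher in WT_EE than in WT_SE, and of the 679 lower genes, 237 (34.9%) were also lower. Over all genes tested, 52.4% were higher and 47.6% lower in WT_EE. The median WT log2 fold change was 0.01 for the higher and 0.02 for the lower genes. An unadjusted p under 0.05 in both genotypes was found for 55 genes, and 19 of these had the same direction. In WT_EE/WT_SE itself, edgeR called 0 genes (0%), and the lowest adjusted p was 0.270. An unadjusted p under 0.05 was found there for 607 genes (4.8%), 204 higher (1.61%) and 403 lower (3.18%) in WT_EE, while DESeq2 with the run block called 17 genes.

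In edgeR, the interaction of EE with genotype was called for 8 genes (0.0632%). It was called for 0 genes when 50 counts were required in every library and for 0 without the run block. The number was also 0 with 5 or 2 surrogate variables in place of the block. DESeq2 called 11 genes in the interaction with the run block and 19 without it. The 8 genes passed the filter on mean counts through the few libraries in which they were high. In the fit with the block, 995 genes (7.86%) had an unadjusted p under 0.05, 480 with a higher (3.79%) and 515 with a lower (4.07%) value in TG animals. All 8 genes had a larger EE/SE log2 fold change in TG than in WT animals, by 6.47 to 8.83 (standard errors 1.31 to 1.64, adjusted p 0.0361 to 0.0764). They were the 8 genes with the largest TG_EE/TG_SE log2 fold changes of all genes tested, 3.32 to 4.94, but did not pass the test in TG animals (adjusted p 0.344 to 0.351). In WT animals their log2 fold changes were -3.89 to -3.10. The 8 genes varied together over the 36 libraries, with a Pearson r of 0.97 to 0.99 between any pair of them. Because they were called through the few libraries in which they were high, this r follows in part from that choice.

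By animal, high values were found in single libraries. The summed level of the 8 genes was 661 CPM in TG_EE replicate 6, 20.05 CPM in replicate 3 and 2.33 to 6.47 CPM in the other 4 TG_EE animals. In TG_SE it was 2.28 to 7.50 CPM, so that 4 of 6 TG_EE animals lay within the range of TG_SE. In WT_SE it was 1468 CPM in replicate 6, 524 CPM in replicate 2, 177 CPM in replicate 5 and 34.8 CPM in replicate 4. In WT_EE it was 257 CPM in replicate 6. No other library in the series exceeded 12.98 CPM. Without TG_EE replicate 6 the interaction was called for 0 genes, as it was without TG_SE replicate 2, TG_SE replicate 6 or WT_SE replicate 2. Without the 5 libraries above 100 CPM, 0 genes were called in the interaction and 0 in TG_EE/TG_SE, where 2151 genes had an unadjusted p under 0.05. None of these 8 genes was among the 281 genes called without run 6.

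**Figure D5:**
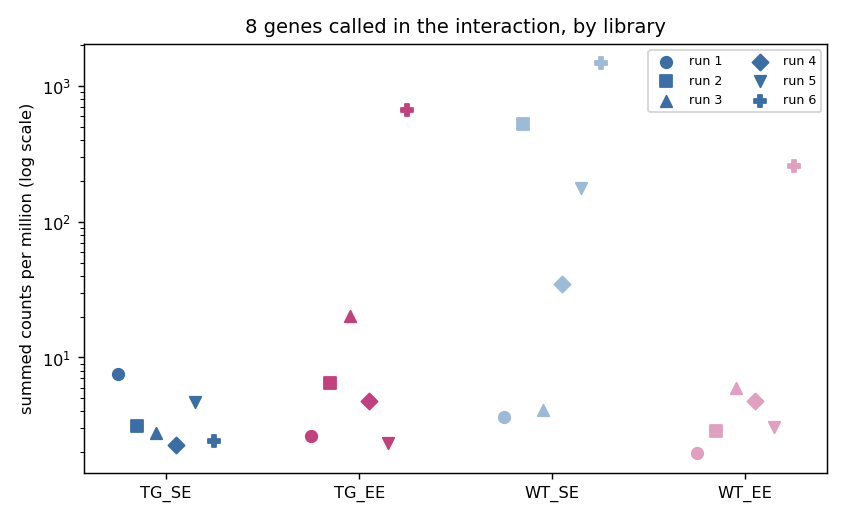
Summed CPM of the 8 genes called in the interaction (vertical axis, log scale) in each library of 4 groups, with symbols giving the run. TG_EE replicate 6 (661 CPM) is high together with WT_SE replicates 2, 5 and 6 and WT_EE replicate 6, and 4 of the 6 TG_EE libraries lie within the range of TG_SE.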

How the data were processed

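Striatal poly(A) RNA of 36 rats was sequenced as paired-end reads. The authors checked reads with FastQC 0.11.4, aligned them with STAR 2.5.2b to the rat genome of Ensembl with the human *HTT* transgene added. The counts they deposited are raw counts per gene, not normalized. As their source the methods give DESeq2, with no separate counting program. Total counts per library are given in the text and limit precision through the standard errors.

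The test was that of edgeR 4.0.16 in R 4.3.3 (TMM normalization, quasi-likelihood test) over all 36 libraries, with 1 mean per group and the run of 6 consecutive library numbers as block. Adjusted p-values are Benjamini-Hochberg values over the 12657 genes whose raw counts averaged 50 or more. Calls needed an adjusted p no higher than 0.1 and a log2 fold change of 0.3 or more in size. Levels are TMM-normalized CPM, and log2 levels add 0.5. Deviations from the group means correlated by 0.14 on average between libraries of the same run and by -0.03 between those of different runs. Between TG_EE and TG_SE libraries of the same run they correlated by -0.19 to 0.26. The scripts were tested on simulated counts. DESeq2 1.42.0 and sva 3.50.0 were used for alternatives.

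The groups, lists and tests were chosen with earlier results of these data known. The rule for named genes was the 12 genes with a symbol and the smallest p in each direction, the genes the study lists, members of gene lists with an unadjusted p under 0.05 or the highest counts, huntingtin and genes called in the interaction. Because identifiers could not be paired with symbols, it was reduced to the 2 genes with the smallest p in each direction, and gene lists, cell type markers and promoter sequences were not analysed here.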

Additional observations from a re-analysis of the deposited data

Results flagged for a closer look

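In TG_SE, replicate 5 had 13.9 CPM of ENSRNOG00000018382, and its gap to the next animal was 0.635 of the range of the group. In TG_EE, replicate 6 stood apart in the summed level of the 8 genes called in the interaction, with a gap of 0.973 of the range. These genes were called through the high values of that library, so this gap was fixed by the choice of genes and is a description. Both gaps were above Dixon's 95% critical value, as were none of the others among 13 sets of values, and chance gives such a gap in about 1 of 20 groups that were not chosen by their values. In edgeR, the interaction of EE with genotype was called for 8 genes. These genes passed the filter on mean counts through the few libraries in which they were high. In edgeR the number called was 0 without the run block, with surrogate variables or with 50 counts required in every library. It was also 0 without TG_EE replicate 6, TG_SE replicate 2, TG_SE replicate 6 or WT_SE replicate 2, and without the 5 libraries above 100 CPM. DESeq2 called 11 genes in the interaction with the run block and 19 without it.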

How the results depend on the processing

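The number of genes called in TG_EE/TG_SE was 0 in 11 of 13 alternatives that kept every animal or left out the 5 libraries above 100 CPM, and the exceptions were DESeq2 with the run block (4 genes) and without it (10 genes). Among the 11, an adjusted p of at most 0.05 and no minimum fold change were only other thresholds on the main fit. Its smallest adjusted p was 0.237, so both had to give 0. Leaving out 1 TG_EE or TG_SE animal at a time gave 0 to 90 genes, and leaving out the TG_EE and TG_SE animals of a run, added after the data were seen, gave 0 to 281. Genes with an unadjusted p under 0.05 numbered 760 to 2212 without 1 animal (760 without TG_SE replicate 2) and 732 to 2459 without a run, 386 with 5 surrogate variables and 1017 with only the groups compared. Without the replicate block, which here is the run, TG_EE/TG_SE kept 0 called genes and had 1116 at an unadjusted p under 0.05. The number of genes not overlapping between TG_EE and TG_SE, 38, became 49 to 136 without 1 animal, where fewer values have to separate, and 126 without the 5 libraries. The number of genes with 1 direction in all runs was 539 with DESeq2's size factors.

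The interaction was called for 0 genes without the replicate block, with 5 or 2 surrogate variables, when 50 counts were required in every library (11424 genes) and without the 5 libraries. DESeq2 called it for 11 genes with the run block and 19 without it. In edgeR it was called for 5 genes with only the groups compared, 13 at a mean count of at least 10 and 33 without a filter. It was called for 4 genes when the adjusted p had to be 0.05 or lower, and for 0 to 47 without 1 animal (47 without WT_SE replicate 1). In WT_EE/WT_SE, DESeq2 called 17 genes with and 1 without the run block. Further counts there were 1 with only the groups compared, 1 at a mean count of at least 10, 16 without a filter and 0 to 16 without 1 animal (16 without WT_SE replicate 1 or 3). The 4 genes given by identifier kept their direction under every alternative run. They were picked by their p over these same animals, so this follows in part from that choice. Their smallest log2 fold changes, all in edgeR with 5 surrogate variables, were 0.35, 0.39, -0.23 and -0.12 (adjusted p = 0.9998 for each). The causes of these changes were not tested.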
